A study of Mus musculus with 48 samples.

Results

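Ppp1r3g and 8 other genes of glycogen metabolism were followed in the livers of 24 mice, of which 14 were Ercc1Δ/- and 10 wild type. Ercc1Δ/- mice carry 1 truncated and 1 null allele of Ercc1, a gene of DNA excision repair, and age prematurely. The 9 genes were Ppp1r3g, Ppp1r3b, Ppp1r3c, Gys2, Pygl, Gbe1, Ugp2, Gyg and Phka2, and the array held 11 probe sets for them among 45141 in all. Every probe set given to exactly 1 of the 9 genes was taken, and where a gene had several, the brightest by its mean in all mice was the main readout. Ppp1r3g was chosen by its measured difference between rapamycin-fed and Control mice. Values in that comparison are therefore a description, with no test of a single gene, and nothing is read from its counts of genes past the thresholds.

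The Rapa 14 ppm group held 4 Ercc1Δ/- mice fed AIN93G pellets with 14 ppm encapsulated rapamycin, without limit. The DR 30% group held 5 Ercc1Δ/- mice whose food was reduced stepwise from 7 weeks of age, to 30% less from 9 weeks onward, and was given just before the dark period. The Control group held 5 Ercc1Δ/- mice with free access to AIN93G. WT-DR held 5 wild-type littermates on the same restriction, and WT-Control 5 wild-type littermates with free access to AIN93G. All mice were of an F1 C57BL6J/FVB hybrid background, and RNA was taken at 11 weeks of age. Both Ercc1 alleles are constitutional, so that every tissue of the mutants carried them. The labels allow rapamycin from either of several ages, and which of them applied to the arrays was not given in the sources used here.

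Liver stores glucose as glycogen after a meal and releases it between meals. Glycogenin (Gyg) primes each particle, UDP-glucose pyrophosphorylase (Ugp2) makes the activated sugar, liver glycogen synthase (Gys2) lengthens the chains and the branching enzyme (Gbe1) branches them. Liver glycogen phosphorylase (Pygl) takes glucose off again once phosphorylase kinase, which has Phka2 as its liver alpha subunit, has switched it on. Protein phosphatase 1 turns the synthase on and the phosphorylase off, and is brought to glycogen by targeting subunits. Ppp1r3b (GL), Ppp1r3c (PTG) and Ppp1r3g are 3 such subunits in liver, and in mouse liver Ppp1r3g mRNA is known to be higher in fasting than after feeding.

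Ppp1r3g lies on chromosome 13 and Ppp1r3c on chromosome 19 of the mouse assembly GRCm38.p6. The 250 bases before their transcript starts are shown because these subunits gave the widest differences between groups. The sequences are those of RefSeq on GRCm38.p6, 5′ to 3′ on the strand of the gene, with the plus strand at chr13:35967656-35967905 for Ppp1r3g and the minus strand at chr19:36736605-36736854 for Ppp1r3c. The Ppp1r3g window lies inside the span of the gene record, from 35958824 to 35970388, and that of Ppp1r3c lies just outside its record, from 36731731 to 36736604. Capitals mark a match to any motif searched.
Ppp1r3g: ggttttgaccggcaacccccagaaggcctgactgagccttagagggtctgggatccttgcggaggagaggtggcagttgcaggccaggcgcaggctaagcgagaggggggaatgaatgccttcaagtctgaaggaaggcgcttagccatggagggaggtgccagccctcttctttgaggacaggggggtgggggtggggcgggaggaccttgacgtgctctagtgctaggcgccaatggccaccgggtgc
Ppp1r3c: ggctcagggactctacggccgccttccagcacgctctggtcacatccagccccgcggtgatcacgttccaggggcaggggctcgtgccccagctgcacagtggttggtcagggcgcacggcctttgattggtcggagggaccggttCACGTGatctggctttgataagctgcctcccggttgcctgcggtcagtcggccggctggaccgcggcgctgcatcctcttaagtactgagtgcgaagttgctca
The motifs searched on both strands were the E-box CACGTG and the D-box TTATGTAA with its variant TTACGTAA, which are letters bound by clock factors, the cAMP response element TGACGTCA and the forkhead core TGTTTAC. None of these overlaps another. Windows were found for 7 of the 9 genes (8 windows), and the only match was the E-box of Ppp1r3c, at bases 104 to 99 before the start. Among all 32851 mouse windows of the same length, 6.02% held CACGTG, 0.819% TTATGTAA, 0.113% TTACGTAA, 1.55% TGACGTCA and 3.17% TGTTTAC. A match describes letters only, and says nothing of binding in these livers.

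Levels are the deposited log2 values, on which a difference of 1 is a factor of 2, and a log2 fold change is the difference between the means of 2 groups. A probe set was called where its Benjamini-Hochberg adjusted p in limma was under 0.05 and its fold change at least 1.5. In whole liver, fewer cells of a type and less RNA per cell cannot be told apart. The array medians were between 4.16 and 4.21. Ercc1 itself, by its brightest probe set, was at 5.02 to 5.28 in Rapa 14 ppm, 4.77 to 5.29 in DR 30% and 5.26 to 5.48 in Control mice, against 5.99 to 6.46 in WT-DR and 6.57 to 6.85 in WT-Control mice, so that the genotypes did not overlap. Where its probes lie relative to the truncation was not examined. The 7 hepatocyte markers searched were all measured, and their summed level was 16.27 to 16.35 over all 24 mice. This sum is led by the brightest of them and can hide changes of single markers. In Control over WT-Control their log2 fold changes ran from -0.37 to 0.43. Hnf4a was at 11.67 to 11.79 in Control, against 11.90 to 12.28 in WT-Control, without overlap.

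Ppp1r3g, probe set 1428923_PM_at, had the widest range of the 9 genes, 4.84 log2 units over the 24 mice. It measured 7.13, 7.97, 9.00 and 9.40 in Rapa 14 ppm livers and 6.89, 8.11, 8.54, 9.07 and 9.84 in DR 30% livers, against 5.00, 5.15, 5.19, 5.22 and 5.50 in Control livers. Neither treated group overlapped Control, whose 5 mice lay closer together than those of any other group. In wild-type mice it measured 6.95, 7.23, 7.57, 7.89 and 8.54 under WT-DR, against 5.67, 6.16, 6.63, 7.17 and 7.55 in WT-Control. These groups overlapped, with 3 of the 5 WT-DR mice above every WT-Control mouse.

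From the highest mean down, the groups ran DR 30%, Rapa 14 ppm, WT-DR, WT-Control and Control. Each neighbour in that order overlapped the next, except that no Control mouse reached the lowest WT-Control mouse. The mean of Ppp1r3g was 8.37 ± 1.03 in Rapa 14 ppm (SD, n = 4) and 8.49 ± 1.11 in DR 30% (SD, n = 5), against 5.21 ± 0.18 in Control (SD, n = 5). The log2 fold change of Rapa 14 ppm over Control was 3.16, a factor of 8.94. That of Rapa 14 ppm over DR 30% was -0.12 (95% confidence interval -1.12 to 0.88), values that the choice of the gene touches and that are given without a test.

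DR 30% over Control gave a log2 fold change of 3.28 ± 0.46 (SE), a factor of 9.69, with an adjusted p in limma of 7.97e-05. The Control mice are the same ones whose values brought the gene into the list, so this is not independent of that choice. The comparison of wild-type mice shares no animal with it. There Ppp1r3g averaged 7.64 ± 0.61 in WT-DR and 6.64 ± 0.76 in WT-Control (SD, n = 5 each), a log2 fold change of 1.0 ± 0.46 (SE, limma adjusted p = 0.136) that did not pass the test. The response to restriction was 2.28 log2 units larger in Ercc1Δ/- than in wild-type mice (95% confidence interval 0.94 to 3.61), with an adjusted p in limma of 0.0896 for the difference between the responses. Between untreated genotypes, Control less WT-Control was -1.42 (95% confidence interval -2.37 to -0.48, limma adjusted p = 0.0597). Both of these also use the Control mice. The difference between genotypes passed the test when only these groups were fitted (adjusted p in limma 0.0133), when dim probe sets were left out (0.04), after a renewed quantile normalization (0.0489), and without DR 30% mouse 365 (0.0415) or 368 (0.0312), Rapa 14 ppm mouse 535 (0.0429) or WT-Control mouse 403 (0.0337). Without DR 30% mouse 368 the difference between the responses was 2.68, with an adjusted p in limma of 0.0373. Those are the refits that passed. Over all refits without 1 mouse the adjusted p in limma ran from 0.0312 to 0.143 for the difference between genotypes. For the difference between the responses it ran from 0.0373 to 0.167. Under the other settings it reached 0.0963 for the genotypes and 0.136 for the responses.

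**Figure D1:**
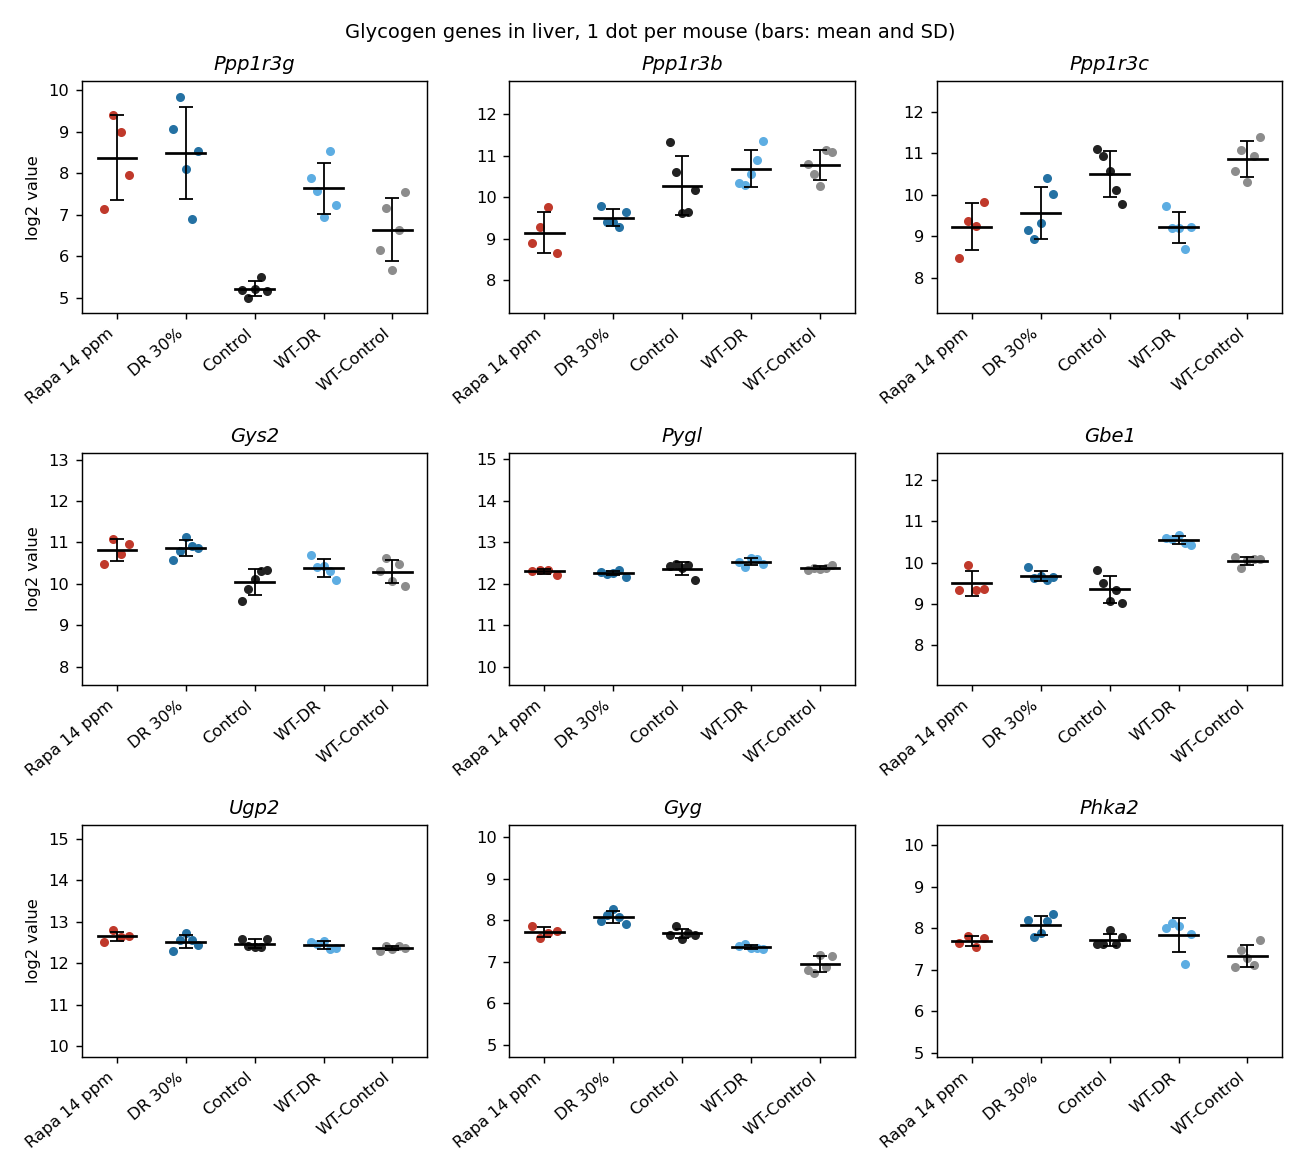
Log2 value of each of the 9 glycogen genes (vertical axes, all of the same span) in each mouse, by group, with the mean and SD as black bars. Ppp1r3g sits between 5.00 and 5.50 in every Control mouse and at 6.89 or above in every Rapa 14 ppm and DR 30% mouse, whereas Pygl and Ugp2 stay nearly level.

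Ppp1r3c, probe set 1433691_PM_at, had a lower mean in all 3 treated groups. It measured 8.48, 9.25, 9.36 and 9.84 in Rapa 14 ppm livers and 8.93, 9.15, 9.31, 10.01 and 10.40 in DR 30% livers, against 9.77, 10.11, 10.56, 10.94 and 11.10 in Control livers. The single highest Rapa 14 ppm mouse and the 2 highest DR 30% mice reached into the Control range. It measured 8.70, 9.20, 9.21, 9.21 and 9.73 in WT-DR livers, against 10.32, 10.58, 10.94, 11.07 and 11.40 in WT-Control livers, with no overlap.

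Ppp1r3c fell in WT-DR mice by 1.65 ± 0.30 on the log2 scale (SE, 3.14 times lower, limma adjusted p = 0.000312). It also fell in DR 30% mice against Control, by 0.94 ± 0.30 (SE, 1.92 times lower), with an adjusted p in limma of 0.0475 that lay close to the threshold. In Rapa 14 ppm mice its mean was 9.23 ± 0.56 (SD, n = 4), against 10.50 ± 0.56 in Control mice (SD, n = 5), a log2 fold change of -1.27. The responses to restriction in the 2 genotypes differed by 0.71 (95% confidence interval -0.15 to 1.57, limma adjusted p = 0.479). A further, dimmer probe set of Ppp1r3c tracked the main one over the 24 mice (r = 0.945). It gave -1.67 in WT-DR over WT-Control (limma adjusted p = 8.65e-05). In DR 30% over Control it gave -0.79, which fell short of the threshold (limma adjusted p = 0.0655). The call of DR 30% over Control was lost without Control mouse 321, 323 or 325, DR 30% mouse 362, 365 or 366, Rapa 14 ppm mouse 536 or 537, WT-DR mouse 422, 423 or 425 or WT-Control mouse 401, 402 or 404, at -0.78 to -0.94 and adjusted p-values in limma up to 0.131, and the call in wild-type mice was kept without any 1 mouse.

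Ppp1r3b, the main targeting subunit of liver, measured 8.65, 8.90, 9.30 and 9.77 in Rapa 14 ppm mice and 9.29, 9.41, 9.41, 9.65 and 9.78 in DR 30% mice, against 9.63, 9.65, 10.19, 10.62 and 11.34 in Control mice. The Control mice were widely spread and overlapped both treated groups at their lower end. The log2 fold change was -1.13 in Rapa 14 ppm over Control, and -0.77 ± 0.27 in DR 30% over Control (SE, limma adjusted p = 0.0826), which did not pass. The difference between DR 30% and Control passed without Control mouse 325 (-0.94, limma adjusted p = 0.0381) or 326 (-0.93, limma adjusted p = 0.0425). In wild-type mice Ppp1r3b was at 10.30 to 11.36 under WT-DR, against 10.28 to 11.14 in WT-Control, a difference of -0.08 (95% confidence interval -0.65 to 0.48). The wild-type groups covered nearly the same range.

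Gys2, the liver glycogen synthase, stood higher in both treated mutant groups. The gene lies on chromosome 6 from 142422612 to 142473130 (GRCm38.p6), and its probe set 1424815_PM_at measured 10.49, 10.71, 10.96 and 11.08 in Rapa 14 ppm livers and 10.59, 10.81, 10.88, 10.92 and 11.13 in DR 30% livers, against 9.59, 9.88, 10.13, 10.31 and 10.35 in Control livers. Every treated mouse was above every Control mouse. Gys2 rose in DR 30% over Control by 0.81 ± 0.15 (SE), a factor of 1.76, with an adjusted p in limma of 0.00133. In Rapa 14 ppm over Control the log2 fold change was 0.76, a factor of 1.69, and Rapa 14 ppm and DR 30% differed by -0.05 (95% confidence interval -0.39 to 0.28).

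In wild-type mice the values of Gys2 lay close together. It measured 10.10, 10.32, 10.42, 10.43 and 10.69 in WT-DR livers, against 9.96, 10.08, 10.31, 10.49 and 10.63 in WT-Control livers. The ranges almost coincided, and the log2 fold change was 0.10 (95% confidence interval -0.21 to 0.41, limma adjusted p = 0.718). The difference between the responses of the genotypes was 0.71 (95% confidence interval 0.27 to 1.16), with an adjusted p in limma of 0.111, so that it did not pass over all probe sets. Control mice averaged 10.05 ± 0.32 and WT-Control mice 10.29 ± 0.28 (SD, n = 5 each), a difference of -0.24 (limma adjusted p = 0.395).

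Gyg and Gbe1, which prime and branch glycogen, were called between the genotypes. Gyg, on chromosome 3 from 20122083 to 20155117, measured 7.56, 7.65, 7.65, 7.69 and 7.86 in Control livers, against 6.73, 6.79, 6.87, 7.14 and 7.16 in WT-Control livers. It rose in Control over WT-Control by 0.74 ± 0.09 on the log2 scale (SE), a factor of 1.67, with an adjusted p in limma of 4.06e-06. Every Ercc1Δ/- mouse of any diet, at 7.56 or above, was higher than every wild-type mouse, at 7.43 or below.

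Restriction moved Gyg upward in both genotypes by less than the 1.5-fold threshold. It was at 7.91 to 8.28 in DR 30%, against 7.56 to 7.86 in Control, with a log2 fold change of 0.39 ± 0.09 (SE, limma adjusted p = 0.00448). It was at 7.31 to 7.43 in WT-DR, against 6.73 to 7.16 in WT-Control, with a log2 fold change of 0.42 ± 0.09 (SE, limma adjusted p = 0.00105). Neither pair overlapped, and the responses of the genotypes differed by -0.03 (95% confidence interval -0.28 to 0.22). Rapa 14 ppm mice, at 7.57 to 7.85, stayed in the range of Control mice with a log2 fold change of 0.03. All 4 of them were below every DR 30% mouse, by 0.36 ± 0.09 on the log2 scale (SE, limma adjusted p = 0.0195), which is again under 1.5-fold. Without 1 mouse the adjusted p in limma of this last difference reached 0.0677. A further probe set of Gyg, which followed the main one at r = 0.982, gave 0.78 for Control over WT-Control, 0.46 for DR 30% over Control and 0.39 for WT-DR over WT-Control. For Rapa 14 ppm over DR 30% it gave -0.365 (limma adjusted p = 0.043), and there the mice of the groups overlapped.

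Gbe1, on chromosome 16 from 70313949 to 70569720, ran the other way between genotypes. It measured 9.03, 9.08, 9.34, 9.51 and 9.83 in Control livers, against 9.88, 10.07, 10.08, 10.09 and 10.13 in WT-Control livers. It fell in Control against WT-Control by 0.69 ± 0.13 (SE, 1.61 times lower, limma adjusted p = 0.00089), and the groups did not overlap. WT-DR mice were higher still, at 10.42 to 10.66, a log2 fold change of 0.49 ± 0.13 over WT-Control (SE, limma adjusted p = 0.00692) that stayed under 1.5-fold. DR 30% mice, at 9.58 to 9.89, overlapped Control, with a log2 fold change of 0.33 (95% confidence interval 0.07 to 0.59, limma adjusted p = 0.112). Rapa 14 ppm mice were at 9.33, 9.35, 9.37 and 9.95, so that 1 mouse stood apart from the other 3, and their mean was 0.14 above Control.

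Pygl and Ugp2 moved little. Pygl stayed between 12.09 and 12.62 in all 24 mice, and its group means were 12.30 in Rapa 14 ppm, 12.26 in DR 30%, 12.36 in Control, 12.53 in WT-DR and 12.38 in WT-Control. Its log2 fold changes lay between -0.11 and 0.14 over the 5 comparisons of groups. Ugp2 stayed between 12.30 and 12.80, with log2 fold changes between 0.05 and 0.17. In the comparisons tested on all mice, no adjusted p of either gene passed the threshold. The confidence interval of DR 30% over Control was -0.24 to 0.03 for Pygl and -0.10 to 0.20 for Ugp2, intervals that leave out a 1.5-fold change in either direction. Among the refits, the lowest adjusted p in limma for WT-DR over WT-Control was 0.0272 for Pygl and 0.0356 for Ugp2. Without 1 mouse it reached 0.0404 for Pygl in DR 30% over Control, and 0.0454 for the difference between the responses. All of these refits stayed under 1.5-fold.

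Phka2 was at 7.54 to 7.81 in Rapa 14 ppm, 7.79 to 8.33 in DR 30% and 7.61 to 7.95 in Control livers, and at 7.14 to 8.13 in WT-DR against 7.06 to 7.71 in WT-Control livers. All pairs of groups compared here overlapped. WT-DR over WT-Control gave 0.51 ± 0.15 (SE, limma adjusted p = 0.0214), which was under 1.5-fold and as wide as the change of Gbe1 there (0.49). It would have been called without WT-DR mouse 424 (0.68, limma adjusted p = 0.00048) or without WT-Control mouse 405 (0.60, limma adjusted p = 0.00826). DR 30% over Control gave 0.36 (95% confidence interval 0.04 to 0.67, limma adjusted p = 0.164), and Control over WT-Control 0.39 (95% confidence interval 0.07 to 0.70, limma adjusted p = 0.136).

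**Figure D2:**
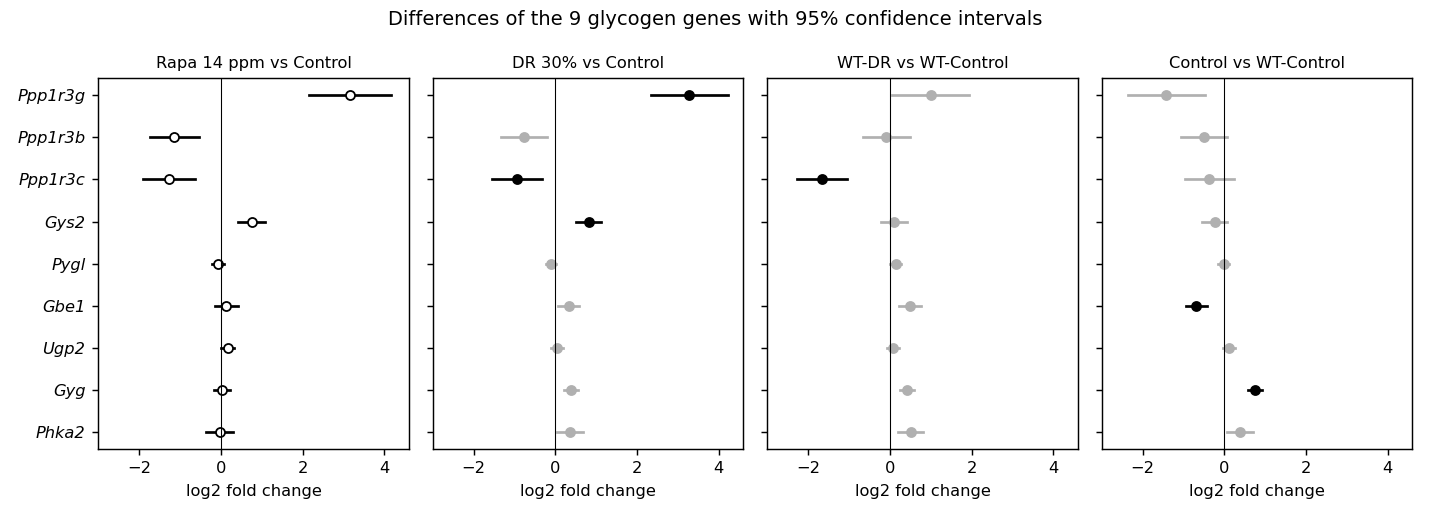
Log2 fold change of each gene (horizontal axes) with its 95% confidence interval, in 4 comparisons. Open circles are descriptions without a test, black dots passed an adjusted p of 0.05 and a 1.5-fold change, and grey dots did not: Ppp1r3g (3.28), Gys2 (0.81) and Ppp1r3c (-0.94) passed in DR 30% over Control, and only Ppp1r3c (-1.65) in WT-DR over WT-Control.

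Counted over the 9 genes, DR 30% over Control called 2 higher (Ppp1r3g and Gys2) and 1 lower (Ppp1r3c), where 1.49% of all probe sets were called higher and 0.948% lower. Ppp1r3g was chosen on the same Control mice, and of the 8 genes without it 1 was called higher and 1 lower. The median log2 fold change was 0.33 over the 9 genes and 0.19 without Ppp1r3g, against -0.01 over all probe sets. An unadjusted p under 0.05 in limma was found for 7 of the 9 genes and 21.9% of all probe sets. WT-DR over WT-Control called 0 higher and 1 lower (Ppp1r3c) in limma, where 3.41% of all probe sets were called higher and 2.63% lower, with 6 of the 9 genes and 31.1% of all probe sets at an unadjusted p under 0.05. There the median was 0.14, against -0.01. Control over WT-Control called 1 higher (Gyg) and 1 lower (Gbe1), beside 1.63% and 0.888% of all probe sets, with a median of -0.24, or -0.13 without Ppp1r3g, against -0.01. The shares over all probe sets include dim ones, whereas the 9 genes lay at percentiles 78.8 to 99.3 of level. With dim probe sets left out, limma called 686 of 22570 higher and 427 lower in DR 30% over Control. It then called 1483 higher and 1150 lower in WT-DR over WT-Control, and 735 and 395 in Control over WT-Control.

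In Rapa 14 ppm over Control 1 gene, Ppp1r3g, met the thresholds and 0 were called lower, beside 0.0244% of all probe sets higher and 0.00665% lower. That comparison brought Ppp1r3g into the list, so nothing is read from the count. Between Rapa 14 ppm and DR 30% limma called 0 of the 9 genes, although the unadjusted p was under 0.05 for 2 of them and for 17.7% of the array, beside 0.704% of all probe sets higher and 0.902% lower. For the difference between the genotypes' responses to restriction limma called 0 of 9, with 3 of them and 13.8% of all probe sets at an unadjusted p under 0.05, beside 0.496% higher and 0.306% lower of all probe sets.

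Rapa 14 ppm and DR 30% share the Control mice, so their differences from Control are only set side by side. Ppp1r3g was 3.16 above Control in Rapa 14 ppm and 3.28 above it in DR 30%. Gys2 was 0.76 above Control in Rapa 14 ppm and 0.81 above it in DR 30%. For Ppp1r3c the log2 fold change was -1.27 in Rapa 14 ppm and -0.94 in DR 30%. These genes and Ppp1r3b (-1.13 in Rapa 14 ppm and -0.77 in DR 30%) are the synthase and the phosphatase subunits. The other 5 genes lay between -0.06 and 0.17 in Rapa 14 ppm, and between -0.11 and 0.39 in DR 30%. Among these, Gyg (0.03 in Rapa 14 ppm and 0.39 in DR 30%) and Phka2 (-0.03 in Rapa 14 ppm and 0.36 in DR 30%) had the widest gaps.

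**Figure D3:**
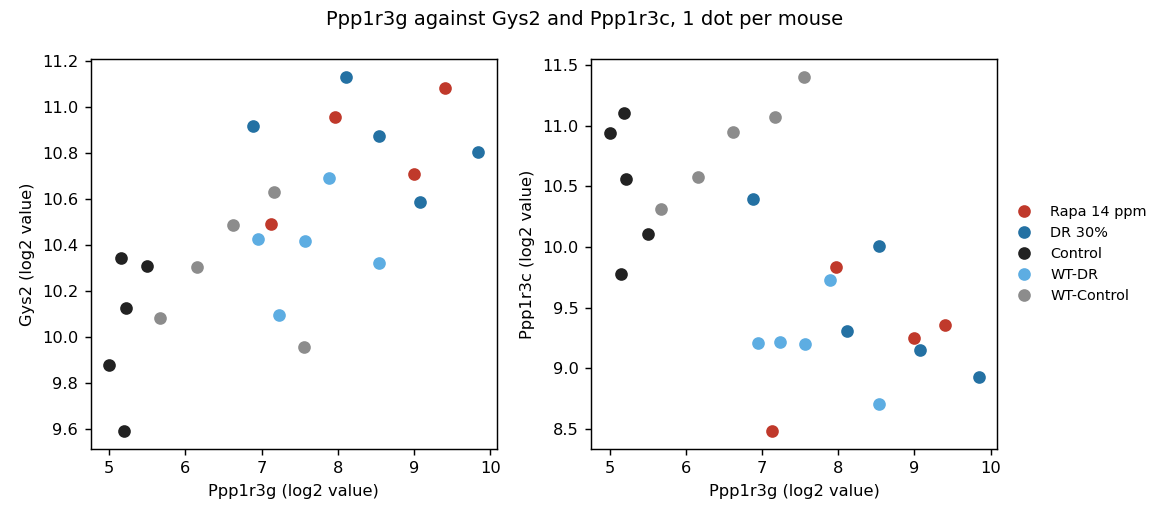
Log2 value of Ppp1r3g (horizontal axes) against that of Gys2 (left) and of Ppp1r3c (right) in the same liver, 1 dot for each of the 24 mice, coloured by group. Over all mice r was 0.691 with Gys2 and -0.583 with Ppp1r3c, and within the groups the deviations from the group means gave 0.105 and -0.094.

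Over the 24 mice Ppp1r3g went with Gys2 at r = 0.691 and against Ppp1r3c at r = -0.583. Nearly all of this lay between the groups. The deviations of single mice from their group means gave r = 0.105 with Gys2 and -0.094 with Ppp1r3c. These are descriptions over mice that share diets and genotypes.

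Among 10338 genes with a probe set brighter than the median, those nearest to Ppp1r3g in pattern over the 24 mice were Lpin2 (r = 0.814), Hipk1 (0.787), Prps1 (0.784), Slc25a32 (0.779), Ctcflos (0.777), Tfb2m (0.743), Chic2 (0.733), Slc15a4 (0.731), Maff (0.723) and Rad9b (0.717). Lpin2 is a phosphatidate phosphatase of triglyceride synthesis, Slc25a32 a mitochondrial folate and FAD carrier, and Maff a small Maf transcription factor. Slc25a32 had log2 fold changes of 1.44 in Rapa 14 ppm over Control and 1.37 in DR 30% over Control, and Lpin2 had 0.92 in Rapa 14 ppm over Control and 0.85 in DR 30% over Control. The ranking was made on these same mice, so such differences between the groups follow from it and are no further support. The most opposite patterns were those of Stat2 (-0.799), Atp8b1 (-0.792) and Slc36a1 (-0.752). Over the deviations from group means the nearest were Tat (0.778), the tyrosine aminotransferase, Appbp2os (0.77), Atp5c1 (0.705), Arg1 (0.703), the arginase of the urea cycle, and Grcc10 (0.681). All of these are extremes among 10338 genes, and no chance level was worked out for them.

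The rest of the pathway was read from 27 further genes with a probe set of their own. In DR 30% over Control limma called 0 of the 27 in either direction (the unadjusted p was under 0.05 for 13 of them and for 21.9% of the array), with a median log2 fold change of 0.08 and a range of -0.94 to 0.56. In Rapa 14 ppm over Control 0 of the 27 met the thresholds, with a range of -0.22 to 0.52. In WT-DR over WT-Control 3 of 27 fell and 0 rose, in Rapa 14 ppm over DR 30% 1 rose and 0 fell, and in Control over WT-Control 1 fell and 0 rose. The percentages of all probe sets given above for these comparisons apply here too.

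G6pc, the catalytic subunit of glucose-6-phosphatase that releases glucose from liver, fell in WT-DR. It averaged 10.87 ± 0.80 in WT-DR and 12.41 ± 0.47 in WT-Control (SD, n = 5 each), a log2 fold change of -1.55 ± 0.31 (SE, limma adjusted p = 0.000856), although 1 WT-DR mouse, at 12.24, lay within the WT-Control range. In Ercc1Δ/- mice it was at 11.64 to 12.40 in Rapa 14 ppm, 11.02 to 11.24 in DR 30% and 10.95 to 12.42 in Control. The Control mice spanned the others, and DR 30% over Control was -0.94 (limma adjusted p = 0.058).

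Phkb, the beta subunit of phosphorylase kinase, was lower under restriction in both genotypes. It was at 8.34 to 8.44 in Rapa 14 ppm and 7.58 to 7.95 in DR 30% livers, against 8.06 to 8.37 in Control livers. It was at 7.69 to 7.97 in WT-DR livers, against 8.33 to 8.60 in WT-Control livers. Phkb fell in WT-DR by 0.60 ± 0.07 (SE, limma adjusted p = 4.1e-06). It was 0.64 ± 0.08 higher in Rapa 14 ppm than in DR 30% (SE, limma adjusted p = 5.41e-05), and DR 30% over Control was -0.48 (limma adjusted p = 0.000217), under 1.5-fold. No DR 30% mouse reached the Control mice.

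Stbd1, which tethers glycogen to membranes on its way to the lysosome, differed between the genotypes in how it went with restriction. It averaged 9.96 ± 0.28 in DR 30% and 9.39 ± 0.32 in Control (SD, n = 5 each), and 9.53 ± 0.34 in WT-DR and 10.23 ± 0.44 in WT-Control (SD, n = 5 each). It fell in WT-DR by 0.70 ± 0.22 (SE, limma adjusted p = 0.0238) and in Control against WT-Control by 0.84 ± 0.22 (SE, limma adjusted p = 0.0175). The 2 responses to restriction differed by 1.27 ± 0.31 (SE), with an adjusted p in limma of 0.0437 that lay close to the threshold. DR 30% over Control, at 0.56, was under 1.5-fold and not called. The mice of DR 30% (9.51 to 10.20) overlapped those of Control (9.11 to 9.94). Those of WT-Control (9.59 to 10.56) overlapped both WT-DR (9.05 to 10.02) and Control. Rapa 14 ppm mice averaged 9.92 ± 0.47 (SD, n = 4).

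The other 5 lists of the pathway held 17 genes, none of which was called in any comparison. Outside Rapa 14 ppm over Control, 22 of their 85 tests in limma had an unadjusted p under 0.05, where 21% of the tests of all probe sets in these comparisons did. The brightest gene of each list is given here. Among the 4 other targeting subunits, Ppp1r3f had log2 fold changes between -0.07 and 0.08 over the 5 comparisons of groups. The dimmer Ppp1r3e, named after its values were seen, was higher by 0.39 in DR 30% over Control (limma adjusted p = 0.0343) and by 0.38 in WT-DR over WT-Control (limma adjusted p = 0.0212), both under 1.5-fold. Among the 3 catalytic subunits of the phosphatase, Ppp1cc was higher by 0.35 in DR 30% over Control (limma adjusted p = 0.000461) and by 0.38 in WT-DR over WT-Control (limma adjusted p = 6.53e-05), both under 1.5-fold and without overlap. Gys1, the muscle synthase and the brightest of the 3 isoenzymes of other tissues, was at 4.44 to 5.16 in all mice. Pgm1, which interconverts glucose 1-phosphate and glucose 6-phosphate, gave 0.26 in DR 30% over Control (limma adjusted p = 0.0182) and 0.24 in WT-DR over WT-Control (limma adjusted p = 0.0131), both under 1.5-fold. Gsk3b, a kinase that inhibits the synthase, lay between -0.17 and 0.11 over the 5 comparisons.

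**Figure D4:**
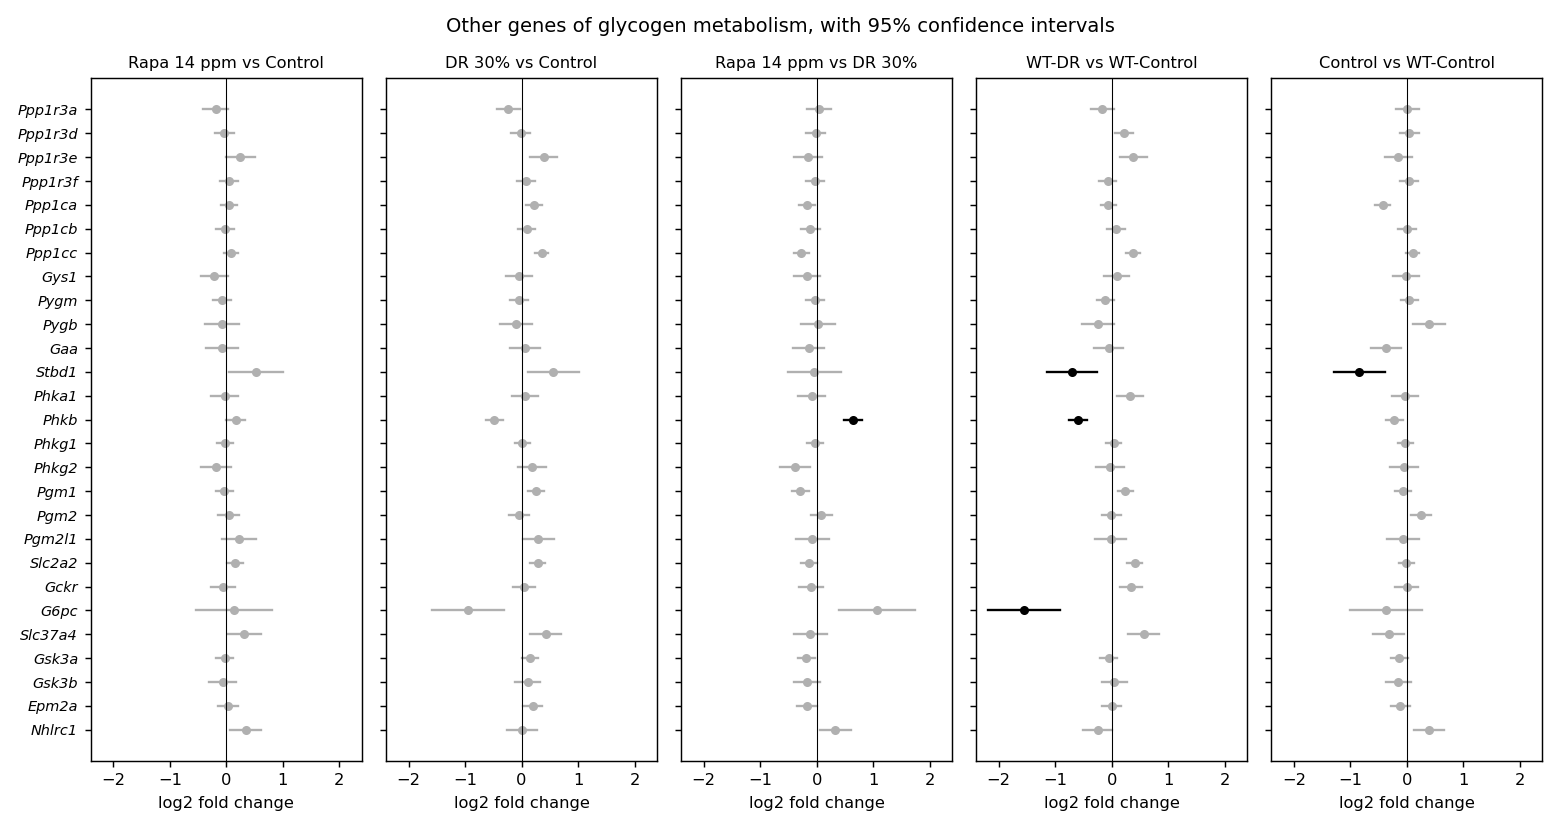
Log2 fold change with its 95% confidence interval (horizontal axes) of 27 other genes of glycogen metabolism in 5 comparisons, of which Rapa 14 ppm over Control is a description without a test. Black dots are genes called: Phkb (0.64) in Rapa 14 ppm over DR 30%, G6pc (-1.55), Stbd1 (-0.70) and Phkb (-0.60) in WT-DR over WT-Control, and Stbd1 (-0.84) in Control over WT-Control.

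Genes of fasting, feeding and the clock were read beside these because restricted mice received their food just before the dark period. Of 8 measured genes known to rise in fasting, DR 30% over Control called 1 higher, Lpin1 (1.5, limma adjusted p = 0.0391), while Tat (0.57, limma adjusted p = 0.00386) stayed under 1.5-fold and Cpt1a (0.39, limma adjusted p = 0.0746) did not pass. Pdk4 had a lower mean in DR 30% (5.467) than in Control (6.265), as did Fgf21 (4.554 against 5.029), and the means of the others were higher. Among these others Pck1 was dim, with group means of 3.04 to 3.71, below the median probe set at 4.19. The summed level of this list is led by its brightest genes and adds genes that moved in opposite directions. This sum was 13.73 to 14.35 in Rapa 14 ppm and 13.74 to 14.40 in DR 30%, against 13.27 to 13.70 in Control. Neither treated group overlapped Control. Under WT-DR the sum was 13.80 to 14.31, against 13.60 to 14.12 in WT-Control. There 2 of the 8 genes were called higher and 1 lower. In the list of 9 genes known to rise with feeding limma called 0 in DR 30% over Control (0 at an unadjusted p under 0.05), with Scd1 at 0.42, Pnpla3 at -0.91 and Acly at -0.33. In WT-DR over WT-Control it called 3 of these 9 higher and 0 lower. Of all probe sets, limma called 1.49% higher and 0.948% lower in DR 30% over Control. In WT-DR over WT-Control it called 3.41% of all probe sets higher and 2.63% lower.

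Of the 9 clock genes measured, DR 30% over Control called 6 higher and 2 lower, beside 1.49% and 0.948% of all probe sets. The calls were led by Per1 (2.38, limma adjusted p = 0.000706), Ciart (3.53, limma adjusted p = 0.000762) and Per3 (2.08, limma adjusted p = 0.00322). The summed level was 11.35 to 12.17 in Rapa 14 ppm and 12.26 to 12.59 in DR 30%, against 11.04 to 12.09 in Control. The sum is led by the brightest genes and adds genes that moved in opposite directions. In Rapa 14 ppm over Control, described without a test, the log2 fold changes of the 9 genes lay between -1.91 and 1.74 with a median of 0.69, and were 1.52 for Per1, 1.74 for Ciart and 1.11 for Per3. In wild-type mice the sum was 12.33 to 12.62 in WT-DR, against 11.15 to 12.01 in WT-Control. There 6 of the 9 genes were called higher and 0 lower, beside 3.41% and 2.63% of all probe sets. The part of feeding and clock time in the values of Ppp1r3g, Gys2 and Ppp1r3c was not tested.

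Markers of other liver cells differed between some of the groups. The 4 measured of 5 neutrophil markers summed to 6.74 to 7.43 in Control, against 5.87 to 6.02 in WT-Control, a difference that S100a8 (1.48) and S100a9 (1.47) carried, with Mpo at -0.01 and Ngp at -0.05. In the same groups the 7 stellate cell markers summed to 12.56 to 12.69 in Control, against 11.94 to 12.34 in WT-Control. Their single log2 fold changes ran from 0.05 to 0.75. The sums of both lists were without overlap, as were Gyg and Gbe1 between the same groups. The 2 measured of 4 erythroid markers summed to 6.06 to 6.77 in DR 30%, against 6.95 to 7.51 in Control, and to 5.77 to 6.54 in WT-DR, against 7.17 to 7.77 in WT-Control. Alas2 carried this, with means of 5.95 in DR 30% against 7.10 in Control, and 5.53 in WT-DR against 7.24 in WT-Control. The dim Slc4a1 was at 3.88 against 4.02, and at 4.02 against 4.06. The neutrophil sum was 6.39 to 6.55 in Rapa 14 ppm, below that of Control without overlap, and 6.67 to 7.68 in DR 30%. Of the 8 macrophage markers limma called 1 higher in DR 30% over Control (Marco, 1.11), where the median of the 8 was -0.09. In WT-DR over WT-Control it called 2 lower (Adgre1, -0.93, and Clec4f, -0.71). There the median was -0.46, while Marco was at 0.87. In Control over WT-Control it called 1 higher (Vsig4, 0.59), with a median of 0.46. The percentages of all probe sets given above for these comparisons stand beside these counts too. The part of other cells in the results was not tested.

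The mean of 45 spike-in control probe sets was 7.55 ± 0.03 in Rapa 14 ppm (SD, n = 4) and 7.62 ± 0.02 in DR 30%, against 7.68 ± 0.05 in Control (SD, n = 5 each). It was 7.59 ± 0.06 in WT-DR and 7.69 ± 0.04 in WT-Control (SD, n = 5 each). The Rapa 14 ppm arrays, at 7.50 to 7.58, overlapped WT-DR (7.51 to 7.66). They lay below every array of DR 30% (7.59 to 7.65), Control (7.61 to 7.75) and WT-Control (7.64 to 7.74). In the sample titles that go with the values per probe set, the 4 rapamycin mice lack a mark of renewed analysis that the other 20 carry. In those that go with the values per gene all carry such a mark, the rapamycin mice another one than the rest. Whether these arrays were run at another time was not given in the sources used here, and such a batch and the rapamycin diet cannot be told apart.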

How the data were processed

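Liver RNA of 24 mice had been measured on Affymetrix HT MG-430 PM array plates, 1 array for each mouse. The deposited values are on the log2 scale. The authors had put the arrays through quality control and normalization on arrayanalysis.org, and the submitters' processing notes name RMA (version not given in the sources used here), so that background and probe effects were removed upstream. A second deposited table holds log2 values per gene of the same arrays.

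Probe sets took their gene from the platform annotation, with symbols brought to RefSeq. Of 45141 probe sets 28898 had 1 gene, 551 several and 15692 none. All 5 groups entered a single limma fit (limma 3.58.1, R 4.3.3) with 1 coefficient per group, from which 6 contrasts were taken over all probe sets (Benjamini-Hochberg adjusted p under 0.05 and at least 1.5-fold). On simulated data the model called 40 to 62% of 1.5-fold and 96 to 100% of 2-fold changes over the 5 comparisons of groups. The changed probe sets were drawn at random from all 45141, so these rates do not hold for genes of wide spread. In each comparison 50 probe sets were changed at each size, and the adjusted p depends on how many change. In the data only 19 probe sets had an adjusted p in limma under 0.05 in Rapa 14 ppm over Control, so the rates do not hold there. The SD within groups was 0.793 for Ppp1r3g, 0.511 for Ppp1r3c and 0.473 for Ppp1r3b. The 2-fold difference of Ppp1r3g in WT-DR over WT-Control was not called (limma adjusted p = 0.136). The number of arrays limits the precision.

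The members and lists were chosen with earlier results of these data known. The text names the 9 genes, genes of the pathway lists called in any comparison or else the brightest of a list, up to 3 genes each of the fasting, feeding and clock lists by adjusted p in DR 30% over Control, and the genes nearest to and farthest from Ppp1r3g in pattern. The alternatives were the values per gene, other normalizations, variances, filters and thresholds, and leaving out each mouse. Some genes of the lists are not reported here.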

Additional observations from a re-analysis of the deposited data

Results flagged for a closer look

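Among 45 groups of mice (9 genes in 5 groups), 4 held a mouse whose gap to the nearest other mouse was large for the range of its group, where chance alone gives about 1 in 20. Control mouse 327 had the lowest Pygl, at 12.09, against 12.38 in the next lowest Control mouse. Rapa 14 ppm mouse 536 had the highest Gbe1, at 9.95, against 9.37 in the next. WT-Control mouse 402 had the lowest Gbe1, at 9.88, against 10.07 in the next. WT-DR mouse 424 had the lowest Phka2, at 7.14, against 7.85 in the next. The cause of these gaps was not tested.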

How the results depend on the processing

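Of 1364 refitted log2 fold changes tested in the 9 genes, 1320 kept direction and side of the threshold. Many of these refits left out a mouse of neither group compared, where the log2 fold change cannot move. Genes far from the threshold are counted too, so the number is no measure of how firm the calls are. The count of genes lower in DR 30% over Control was 1, became 0 with only the groups of the comparison, with median centring, with trended robust variances and at 2-fold, and ran from 0 to 2 when 1 mouse was left out. That gene is Ppp1r3c, whose call was lost without Control mouse 321, 323 or 325, DR 30% mouse 362, 365 or 366 (-0.78 to -0.93, limma adjusted p = 0.0802 to 0.131), and, with the value the same and the adjusted p at 0.0518 to 0.0562, without Rapa 14 ppm mouse 536 or 537, WT-Control mouse 401, 402 or 404 or WT-DR mouse 422, 423 or 425. Genes lower in Control over WT-Control numbered 2 with only those groups, without dim probe sets and after renewed quantile normalization, 0 at 2-fold, and 1 to 2 when 1 mouse was left out; Ppp1r3g was the added gene (without DR 30% mouse 365 or 368, Rapa 14 ppm mouse 535 or WT-Control mouse 403). At 2-fold, 1 gene was higher in DR 30% over Control and 0 in Control over WT-Control. With no fold threshold, 1 gene was lower in Rapa 14 ppm over DR 30% and 3 were higher in WT-DR over WT-Control. Leaving out 1 mouse gave 0 to 2 higher and 0 to 1 lower in Rapa 14 ppm over Control (a description, from which nothing is read), 0 to 1 higher in WT-DR over WT-Control (Phka2, 0.68 without WT-DR mouse 424 and 0.60 without WT-Control mouse 405) and 0 to 1 higher for the difference between the responses (Ppp1r3g, 2.68 without DR 30% mouse 368). The log2 fold change of Ppp1r3g in Rapa 14 ppm over Control was 2.82 to 3.57 without 1 mouse. Over all probe sets, the number called moved by more than 1.5 times without 1 mouse in Rapa 14 ppm over Control (11 higher and 3 lower, against 0 to 102 and 0 to 50), Rapa 14 ppm over DR 30% (318 higher, against 183 to 416) and the difference between the responses (224 higher and 138 lower, against 100 to 427 and 57 to 325), so that these percentages are rough. Ppp1r3b in DR 30% over Control passed without Control mouse 325 (-0.94) or 326 (-0.93).

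The sign turned only for differences near 0. Pygl in Control over WT-Control was 0.001 in the values per gene and the difference of the Gyg responses 0.023 over the mean of its probe sets. Leaving out 1 mouse gave ranges of -0.144 to 0.053 for Gys2 in Rapa 14 ppm over DR 30%, -0.005 to 0.102 for Ugp2 in DR 30% over Control, -0.252 to 0.013 for Ppp1r3b in WT-DR over WT-Control, -0.048 to 0.045 for Pygl in Control over WT-Control, and -0.082 to 0.026 for Gyg and -0.082 to 0.025 for Ugp2 in the difference between the responses. The cause was not tested. Outside Ppp1r3c, the calls of Ppp1r3g and Gys2 in DR 30% over Control and of Gyg and Gbe1 in Control over WT-Control were kept without any 1 mouse. No paired analysis was possible because the groups share no replicate numbers.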
